A study of Homo sapiens with 6 samples.

Results

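The genes described here are *ATF4*, partner factors of the same stress response, and genes that ATF4 is known to drive in amino acid synthesis, amino acid uptake and the charging of tRNAs. They were taken by gene symbol from a list of 35 genes. Of these, 33 had a probe set named for them on the array, out of 17687 genes with a named probe set in all, and *ATF5* and *MARS1* were not analysed here. By role, 4 were regulators, 8 served synthesis, 7 served transport, 8 were tRNA ligases and 6 were other effectors of the response. No measured difference was part of the rule for the list, but it was chosen with earlier results of these data known. The arrays compared MDA-MB-231 cells, a human breast cancer line of the triple-negative, mesenchymal-like kind, 24 h after transient transfection with a plasmid that expresses the circular RNA *circAAGAB* and after transfection with the empty vector (3 arrays each, labelled replicate 1 to 3). A circular RNA is a closed loop made by back-splicing, and *circAAGAB* comes from the gene *AAGAB*. Cells of both groups were grown in the same serum-containing medium and received the same delivery reagent. The share of cells that took up plasmid is not given in the sources used here, so each array is a mean over transfected and untransfected cells, and fewer cells with a transcript and less transcript per cell cannot be told apart.

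ATF4 is the main transcription factor of the integrated stress response. Kinases that sense uncharged tRNA, unfolded protein in the endoplasmic reticulum, double-stranded RNA or lack of heme phosphorylate the translation factor eIF2, which lowers protein synthesis in general but raises translation of the *ATF4* mRNA. The ATF4 protein then pairs with C/EBP-type factors and activates genes that bring in or make amino acids, load them onto tRNAs and, under lasting stress, favor cell death. Since ATF4 itself is controlled mainly at translation, its own mRNA is only a partial readout, and the mRNAs of its targets are the usual gauge in array data.

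The signal was the log2 value that the authors computed per probe set by robust multichip averaging, so a difference of 1 is a doubling. Signals of different genes were not set against each other, because probes differ in how strongly they bind. As a check of the labels, *AAGAB* was at 10.97, 11.75 and 11.11 on the *circAAGAB* arrays and at 7.71, 7.56 and 7.73 on the empty vector arrays, 3.61 higher on the log2 scale (standard error 0.22, adjusted p = 0.00319, limma). Where its probes lie relative to the circular exons was not examined. Of markers of this line, 6 of 6 that should be high (*VIM*, *CD44*, *EGFR*, *AXL*, *CAV1* and *MSN*) were above a gauge of background, a log2 signal of 4.65, set at percentile 95 of 349 olfactory receptor genes. *ESR1*, *PGR* and *CDH1*, which should be low, were below it, *ESR1* only just, at a mean of 4.646 against a gauge of 4.651. *EPCAM* and *GATA3*, which should be low too, were above it, at means over the 6 arrays of 7.77 and 6.21. Of measured markers of other cells, 3 of 4 for blood, 3 of 4 for fibroblasts and 1 of 3 for endothelium were below it. *CD14*, *COL1A1*, *CDH5* and *VWF* were above it.

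The DNA element that ATF4 and its partners bind, the C/EBP-ATF response element, has a core written TGATGNAA, or TTNCATCA when it lies on the opposite strand. Windows of 250 bases before to 50 after the transcription start were read from RefSeq (GRCh38.p14) for 28 of the 33 genes, and the core stood in windows of 11 of the 28 (39.3%). Among all genes with a named probe set and a window it stood in 512 of 14250 (3.59%), and among all windows of this length in 3.62%. Of the 11 genes, 4 were tRNA ligase genes (of 7 with a window), 4 were transporters (of 6), 2 were effectors (of 6), 1 was a synthesis gene (of 6) and 0 were regulators (of 3). The stretches below show where the letters lie in the tRNA ligase genes and in leading genes of the other roles. Each runs 5′ to 3′ on the strand of its gene, with the core in capitals.
*AARS1* (chr16:70289675-70289704, minus strand): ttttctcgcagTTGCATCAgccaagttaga
*NARS1* (chr18:57621804-57621833, minus strand): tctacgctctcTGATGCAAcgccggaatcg
*IARS1* (chr9:92293692-92293721, minus strand): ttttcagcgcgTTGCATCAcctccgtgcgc
*GARS1* (chr7:30594834-30594863, plus strand): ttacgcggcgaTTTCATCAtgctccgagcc
*ASNS* (chr7:97872458-97872487, minus strand): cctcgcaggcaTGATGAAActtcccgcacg
*SLC7A1* (chr13:29595663-29595692, minus strand): gggcgcactgcTGATGAAAcctggcgccgg
*CHAC1* (chr15:40953251-40953280, plus strand): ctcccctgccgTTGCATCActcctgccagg
*FGF21* (chr19:48755459-48755488, plus strand): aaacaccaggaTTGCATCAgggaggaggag

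Counted from the transcription start, the first base of the core was at position -187 in *AARS1*, -68 in *ASNS*, -209 in *CHAC1* and -54 in *FGF21*. In *NARS1* and *SLC7A1* it lay at bases 15 and 8 after the start. The stricter spelling TGATGCAA, whose matches are a subset of the others, stood in 7 of the 28 genes (25.0%), 3 of them tRNA ligase genes, against 0.919% of all genes with a named probe set. A match is a run of letters and does not show that a protein sits there.

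With *circAAGAB* overexpression, these genes as a set stayed close to their values with the empty vector. In mean signal, *circAAGAB* overexpression lay above the empty vector for 16 of the 33 and below it for 17, at a median log2 difference of -0.01, while over all 21448 probe sets 10643 were higher and 10805 lower with a median of -0.0017. An adjusted p under 0.05 was reached by 0 of 33 members (limma, Benjamini-Hochberg adjustment across the whole array, every adjusted p = 1.00), where 0.00466% of all probe sets did, which is *AAGAB* alone. At an unadjusted p under 0.05 there were also 0 of 33, against 2.18% of all probe sets, and 0 of 33 met the criteria of the study, a change of 1.5-fold with an unadjusted p under 0.05, against 0.373% of all. The differences ran between -0.57 for *NARS1* and 0.24 for *DDIT3*. The precision sets how far this goes. The 95% interval of a difference reached 0.38 to either side in the median gene and between 0.30 and 1.20 over the members, and for 18 of the 33 genes the whole interval lay within a 1.5-fold change in either direction, a log2 difference of 0.58. For the other 15 the interval reached past that size in at least 1 direction, so this unpaired fit does not bound the change within 1.5-fold. Intervals from a fit that pairs arrays by replicate number are not given here.

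**Figure D1:**
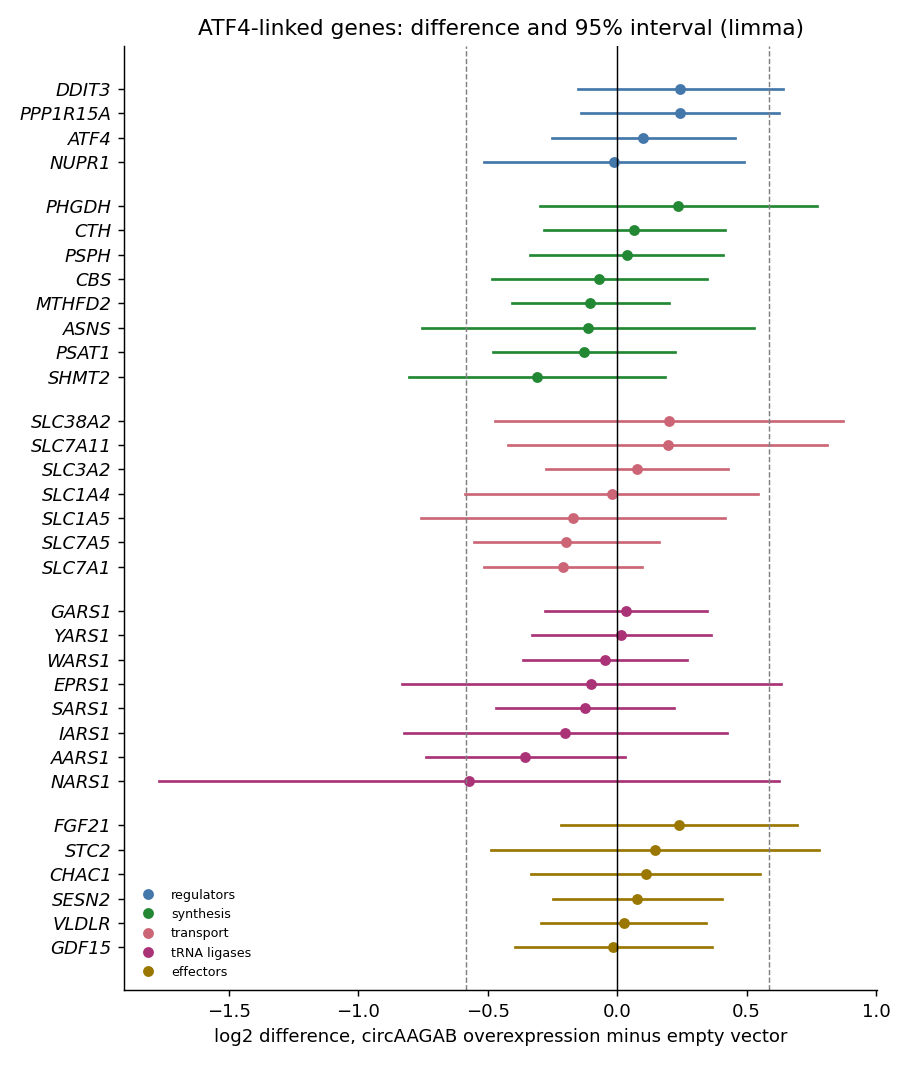
Log2 difference of each gene, *circAAGAB* overexpression minus empty vector (x axis), with its 95% interval from the unpaired limma fit, grouped by role. Dashed lines mark a 1.5-fold change in either direction. All 33 intervals cross 0, and those of *AARS1* and *SLC7A1* reach least far above it, to 0.03 and 0.10.

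Of the regulators, 3 of 4 had a higher mean on the *circAAGAB* arrays (median difference 0.17), and each 95% interval held 0. *ATF4* was at 8.80, 8.75 and 8.46 on the *circAAGAB* arrays and at 8.66, 8.52 and 8.53 on the empty vector arrays (replicates 1 to 3), and the highest as well as the lowest of the 6 values came from the *circAAGAB* group. Its log2 difference was 0.10 (standard error 0.15, 95% interval -0.25 to 0.45). *DDIT3*, which encodes CHOP, the factor that links lasting stress to cell death, was at 6.73, 6.61 and 6.29 with *circAAGAB* and at 6.47, 6.25 and 6.18 with the empty vector. It was higher on the *circAAGAB* array in all 3 pairs of equal replicate number, yet *circAAGAB* replicate 3 lay below empty vector replicate 1. The difference was 0.24 (standard error 0.17, 95% interval -0.15 to 0.64). *PPP1R15A*, which encodes GADD34, the phosphatase subunit that removes phosphate from eIF2 and so ends the response, had signals of 8.54, 8.27 and 8.07 against 8.15, 8.00 and 8.01 with the empty vector. Its *circAAGAB* value was higher in all 3 pairs as well, and the groups overlapped only through *circAAGAB* replicate 3 and empty vector replicate 1. The difference was 0.24 (standard error 0.17, 95% interval -0.14 to 0.63). *NUPR1*, a small stress-induced chromatin protein, had a difference of -0.01.

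Genes of amino acid synthesis went both ways under *circAAGAB*, with 3 of 8 higher, 5 lower and a median difference of -0.09. *ASNS*, asparagine synthetase and the classic reporter of amino acid shortage, was at 5.77, 6.89 and 6.69 with *circAAGAB* and at 6.51, 6.66 and 6.51 with the empty vector. Its difference of -0.11 (standard error 0.28) came from *circAAGAB* replicate 1, the lowest of the 6 values, since the other *circAAGAB* arrays lay above all 3 empty vector arrays. Without that array the difference was 0.23. The genes that make serine were split. *PHGDH*, the first enzyme of the serine pathway, was at 4.35, 4.93 and 4.75 with *circAAGAB* against 4.04, 4.78 and 4.50 with the empty vector, higher in all 3 pairs at a difference of 0.24 (standard error 0.23), but with a mean signal below the background gauge. *PSAT1*, the transaminase of the next step, was at 9.36, 9.38 and 9.14 against 9.41, 9.57 and 9.29 with the empty vector, lower in all 3 pairs at a difference of -0.13 (standard error 0.15). *PSPH*, the phosphatase that completes serine, had a difference of 0.04.

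*SHMT2* and *MTHFD2*, mitochondrial enzymes that pass the one-carbon unit of serine on to folate, were lower on each *circAAGAB* array than on the empty vector array of the same number. Other mitochondrial folate enzymes outside the list of 35 had mixed signs over the pairs, with differences of -0.08 for *MTHFD1L* and, below the background gauge, of 0.10 for both *MTHFD2L* and *ALDH1L2*. *MTHFD2L* was -0.09 without *circAAGAB* replicate 3 and -0.07 without empty vector replicate 1, and *ALDH1L2* was -0.01 without *circAAGAB* replicate 1. *SHMT2*, which splits serine into glycine and a one-carbon unit, was at 9.41, 9.05 and 8.63 with *circAAGAB* and at 9.52, 9.29 and 9.20 with the empty vector. The groups overlapped through *circAAGAB* replicate 1, and the difference was -0.31 (standard error 0.22, 95% interval -0.80 to 0.19). Without *circAAGAB* replicate 1 it was -0.50 with an unadjusted p of 0.0248 (adjusted p = 0.586), in a fit where 8.24% of all probe sets reached an unadjusted p under 0.05. Without both arrays of number 1 it was -0.41 (unadjusted p = 0.0473), where 7.72% did. *MTHFD2*, the dehydrogenase and cyclohydrolase that follows, had 7.86, 7.91 and 7.83 with *circAAGAB* against 7.96, 7.98 and 7.98 with the empty vector. The groups did not overlap, but the difference was only -0.10 (standard error 0.13, 95% interval -0.41 to 0.20), and its empty vector arrays had the smallest SD of any member, 0.01. Of the enzymes that turn homocysteine into cysteine, *CTH* had a difference of 0.07. *CBS*, the step before it, had a pair of probe sets, the only member that did. The brighter one differed by -0.07, while the dimmer was at 4.86, 4.52 and 4.56 with *circAAGAB* against 4.39, 4.19 and 4.12 with the empty vector, a difference of 0.41 without overlap (unadjusted p = 0.0330, adjusted p = 1.00). Both had a mean below the background gauge and they disagree in sign, so no direction is given for *CBS*.

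The transporters were as divided, 3 of 7 being higher with *circAAGAB* and 4 lower, at a median of -0.02. *SLC7A1*, the carrier CAT-1 for arginine and lysine, was at 8.82, 8.76 and 8.82 with *circAAGAB* and at 8.98, 8.97 and 9.07 with the empty vector. Every *circAAGAB* value was below every empty vector value, and the difference was -0.21 (standard error 0.13, 95% interval -0.51 to 0.10). *SLC7A5*, the light chain LAT1 that imports leucine and other large neutral amino acids, was at 9.60, 9.27 and 9.38 against 9.75, 9.57 and 9.51 with the empty vector. It was lower in all 3 pairs at a difference of -0.20 (95% interval -0.55 to 0.16), whereas its heavy chain *SLC3A2*, with which it forms the working carrier, had a difference of 0.08. *SLC7A11*, the light chain xCT that exchanges glutamate for cystine with the same heavy chain, was at 8.24, 8.50 and 9.11 with *circAAGAB* and at 8.02, 8.52 and 8.72 with the empty vector. The groups overlapped through most of their range. Its difference was 0.20 (standard error 0.27), and 0.21, -0.02 and 0.39 over pairs 1 to 3. With 1 array left out it was -0.05 without *circAAGAB* replicate 3 and -0.0045 without empty vector replicate 1. *SLC1A5*, a glutamine carrier, differed by -0.17 and *SLC1A4*, a carrier of small neutral amino acids whose signal was below the gauge, by -0.02. *SLC38A2*, a sodium-coupled carrier of glutamine and alanine that cells raise under amino acid lack, differed by 0.20 (standard error 0.29). Over pairs 1 to 3 it differed by -0.02, 0.27 and 0.36. Without *circAAGAB* replicate 1 alone it was 0.51 (limma, unadjusted p = 0.0425, adjusted p = 0.586). In that fit 8.24% of all probe sets reached an unadjusted p under 0.05. It keeps empty vector replicate 1, the lowest empty vector array of *SLC38A2* at 9.48.

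The tRNA ligases, which attach each amino acid to its tRNA, were lower more often than higher, with 2 higher and 6 lower under *circAAGAB* and a median of -0.11, the lowest of the 5 roles. *AARS1*, the alanine ligase, had the smallest p of all members. It was at 7.37, 7.13 and 7.42 on the *circAAGAB* arrays and at 7.87, 7.45 and 7.67 on the empty vector arrays, so the groups did not overlap. The log2 difference was -0.35, a fold of 0.782 (standard error 0.17, 95% interval -0.74 to 0.03, unadjusted p = 0.0664, adjusted p = 1.00), and between -0.46 and -0.25 with any 1 array left out. With the replicate number as a block, its unadjusted p was 0.0218 (adjusted p = 0.724). *NARS1*, the asparagine ligase, was at 6.04, 7.83 and 7.97 with *circAAGAB* and at 7.15, 8.06 and 8.35 with the empty vector. It was lower in every pair, by 1.11, 0.23 and 0.37, but within each group replicate 1 was far below the others, so the difference of -0.57 had a standard error of 0.52 (95% interval -1.77 to 0.63). With the block, its unadjusted p was 0.0240 (adjusted p = 0.724), and it was -0.30 without both arrays of number 1 and 0.05 without *circAAGAB* replicate 1 alone. These were the 2 members of 33 with an unadjusted p under 0.05 in the blocked fit, where 6.79% of all probe sets reached it.

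*SARS1*, the serine ligase, was at 8.28, 8.23 and 8.07 with *circAAGAB* and at 8.48, 8.22 and 8.25 with the empty vector, a difference of -0.12 (standard error 0.15) with overlapping groups. *IARS1*, the isoleucine ligase, differed by -0.20 and *EPRS1*, which carries the glutamate and proline activities on a single chain, by -0.10, and both were lower in all 3 pairs. Without *circAAGAB* replicate 1 alone, the differences of *IARS1* and *EPRS1* were 0.08 and 0.14. That fit keeps empty vector replicate 1, the lowest empty vector array for both genes, at 8.44 and 6.56. In pairs 2 and 3 the differences were -0.07 and -0.12 for *IARS1* and -0.15 and -0.10 for *EPRS1*. The difference of *EPRS1* was 0.15 without empty vector replicate 3 alone. *WARS1*, the tryptophan ligase, differed by -0.05, *GARS1*, the glycine ligase, by 0.03, and *YARS1*, the tyrosine ligase, by 0.02. For *WARS1*, *GARS1*, *YARS1* and *SARS1* the 95% interval lay within a 1.5-fold change in either direction.

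Among the other effectors, the *circAAGAB* mean was higher for 5 of 6, and the median difference was 0.09. *FGF21*, a hormone released under amino acid lack, was at 5.36, 4.93 and 4.92 with *circAAGAB* and at 5.14, 4.63 and 4.72 with the empty vector, higher in all 3 pairs at a difference of 0.24 (95% interval -0.22 to 0.70). *CHAC1*, which breaks down glutathione, was at 5.86, 6.16 and 5.74 against 5.98, 5.95 and 5.50 with the empty vector. Its groups overlapped, and the difference of 0.11 (standard error 0.19) was -0.01 without *circAAGAB* replicate 2 and -0.05 without empty vector replicate 3. *SESN2*, a leucine sensor that restrains the growth kinase mTORC1, was at 6.12, 6.09 and 5.96 with *circAAGAB* and at 5.98, 6.08 and 5.87 with the empty vector, higher in all 3 pairs at a difference of 0.08 (standard error 0.14). *STC2*, a secreted glycoprotein, differed by 0.15, *VLDLR*, a lipoprotein receptor, by 0.03, and *GDF15*, a secreted signal of cell stress, by -0.01. The *STC2* value came from *circAAGAB* replicate 1 at 5.82, against 4.68 to 5.11 on the other 5 arrays, and was -0.18 without it.

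**Figure D2:**
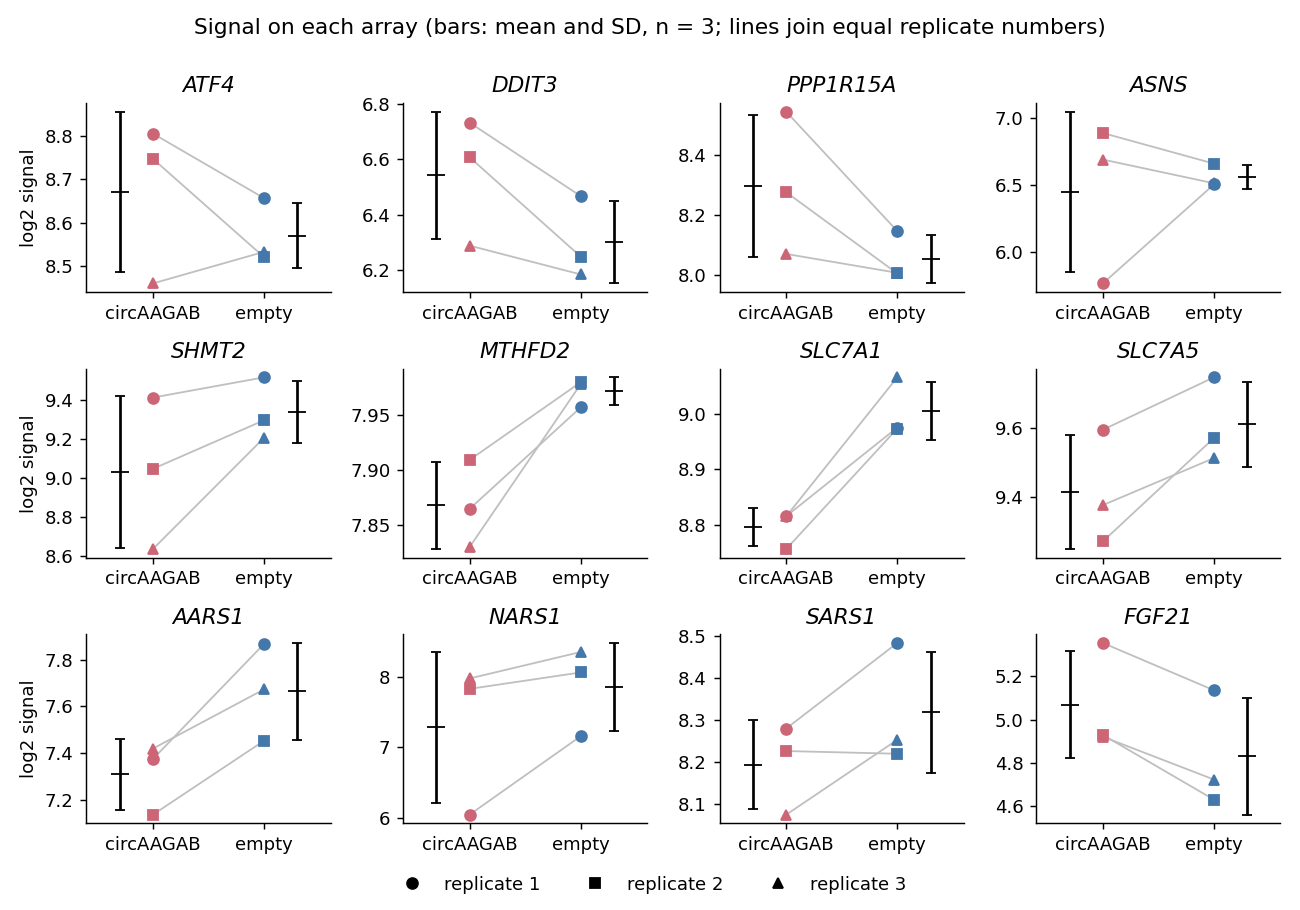
Log2 signal of 12 genes (y axis, scaled per gene) on the *circAAGAB* arrays (left, red) and the empty vector arrays (right, blue); symbols mark replicates 1 to 3, grey lines join equal replicate numbers, and black bars give the mean and SD (n = 3). The groups are apart in *AARS1*, *SLC7A1* and *MTHFD2*, and in *NARS1* replicate 1 is the lowest array of both groups.

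Genes whose groups did not overlap were few. The 3 *circAAGAB* values all lay above the 3 empty vector values in 0 of 33 members, against 3.87% of all probe sets, and all lay below them in 3 of 33 (*AARS1*, *SLC7A1* and *MTHFD2*), against 4.04%. By sign within pairs, 5 of 33 were higher in all 3 (*DDIT3*, *PPP1R15A*, *PHGDH*, *SESN2* and *FGF21*), against 15.4% of all probe sets, and 9 of 33 were lower in all 3 (*PSAT1*, *SHMT2*, *MTHFD2*, *SLC7A5*, *SLC7A1*, *AARS1*, *NARS1*, *EPRS1* and *IARS1*), against 14.8%. With the unpaired equal-variance test that the methods name, run probe set by probe set, *SLC7A1* and *MTHFD2* had an unadjusted p under 0.05, which 4.14% of all probe sets had, and 0 of 33 passed after adjustment. The SD of *SLC7A1* was 0.03 on the *circAAGAB* arrays and 0.05 on the empty vector arrays, and that of *MTHFD2* was 0.04 with *circAAGAB* and 0.01 with the empty vector.

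More of the spread in these genes lay between replicate numbers than between plasmids. Of the total variance of the 33 genes over the 6 arrays, 12.6% lay between *circAAGAB* and the empty vector, 74.3% between replicate numbers and 13.1% in the rest. Over all probe sets these shares were 12.9%, 64.5% and 22.6%. Such pooled shares weigh genes of large spread most, and there are more replicate numbers than plasmids. Gene by gene, the median share between replicate numbers was 59.8% for the members and 60.4% over all probe sets. The replicate number held more of the variance than the group in 29 of the 33 genes, against 82.3% of all probe sets. What the number stands for (a day, a batch of cells or an array run) is not given in the sources used here. The genes named next were chosen after their values were seen, and no test was run on them. *EPRS1* was the clearest, at 6.51, 6.99 and 7.49 with *circAAGAB* and at 6.56, 7.14 and 7.60 with the empty vector, so that 98.3% of its variance lay between numbers. *IARS1* was at 8.03, 8.82 and 8.93 with *circAAGAB* and at 8.44, 8.89 and 9.05 with the empty vector, lowest at number 1 in both groups. *SLC38A2* was at 9.46, 10.31 and 10.47 with *circAAGAB* and at 9.48, 10.04 and 10.11 with the empty vector, which is the same order.

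Replicate 1 was below the mean of replicates 2 and 3 in both groups for 9 of the 33 genes and above it in both for 16, where all probe sets gave 29.5% and 43.7%. Those more than 0.5 below it in both groups were *NARS1* (-1.85 with *circAAGAB*, -1.05 with the empty vector), *SLC38A2* (-0.93 and -0.59), *IARS1* (-0.85 and -0.53), *EPRS1* (-0.73 and -0.81) and *SLC7A11* (-0.57 and -0.60), so 3 of the 5 were tRNA ligase genes. Those more than 0.25 above it in both groups were *SLC1A5* (0.57 with *circAAGAB*, 0.60 with the empty vector), *SHMT2* (0.57 and 0.27), *NUPR1* (0.56 and 0.46), *FGF21* (0.43 and 0.46), *CBS* (0.42 and 0.28) and *DDIT3* (0.29 and 0.25). The shares of all probe sets past the same limits were 6.66% and 15.9%. *ASNS* and *STC2* departed from this, with replicate 1 far from the others on the *circAAGAB* side only (-1.02 against -0.08, and 0.99 against -0.08 with the empty vector).

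**Figure D3:**
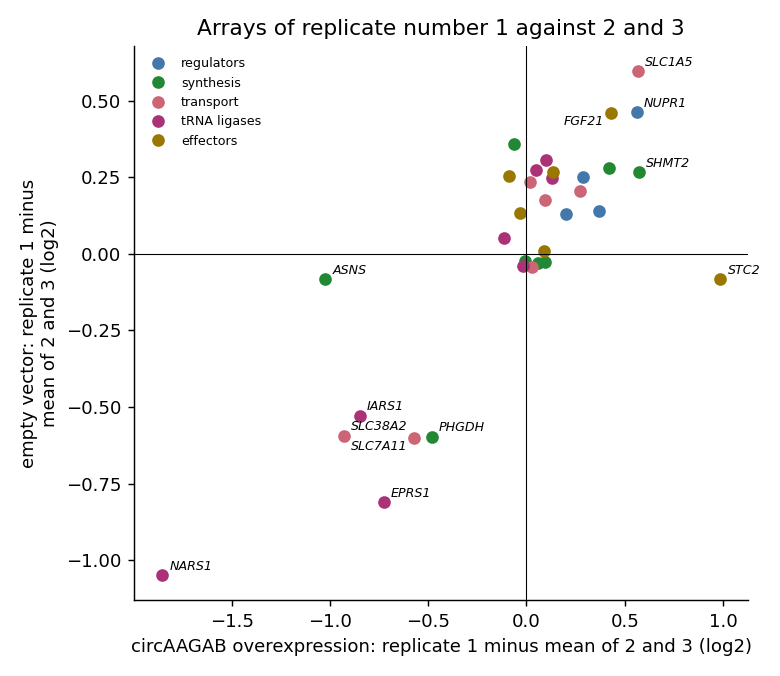
Log2 signal of replicate 1 minus the mean of replicates 2 and 3, in the *circAAGAB* group (x axis) and in the empty vector group (y axis), 1 point per gene and colored by role. *NARS1*, *SLC38A2*, *IARS1*, *EPRS1* and *SLC7A11* are more than 0.5 lower in both groups.

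**Figure D4:**
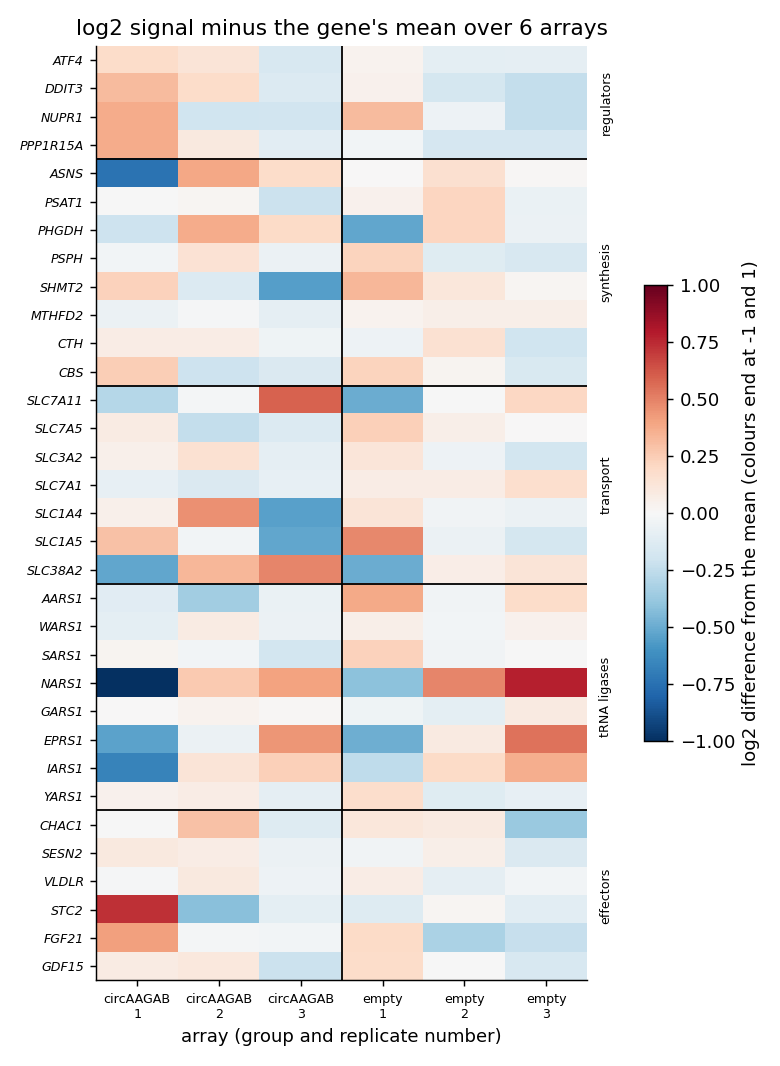
Log2 signal minus the mean of the gene over the 6 arrays (color, ending at -1 and 1), with genes in rows by role, *circAAGAB* arrays in the left columns and empty vector arrays in the right. *EPRS1*, *IARS1*, *SLC38A2* and *NARS1* show the same order of replicates on the left and on the right, and *ASNS* is low in *circAAGAB* replicate 1 alone.

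Genes with the ATF4 element in the promoter window did not stand above those without it. Under *circAAGAB*, 4 of the 11 with the core were higher and 7 lower, at a median difference of -0.11 and a range of -0.57 to 0.24. Of the 17 with a window but no core, 9 were higher and 8 lower, with a median of 0.03 and a range of -0.20 to 0.24. Both members with a p under 0.05 in the blocked fit, *AARS1* and *NARS1*, have the core in the stretches printed above, as does *SLC7A1*, and all 3 were lower with *circAAGAB*. *MTHFD2*, also lower without overlap, has a window but no core, and *SHMT2*, at a difference of -0.31, has no window. *FGF21* and *CHAC1*, which also have it, were higher in mean, at differences of 0.24 and 0.11. These values are a description, with no test.

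Of the genes that surround the pathway, only *ATF3* met the criteria of the study. Among 18 measured eIF2 kinases, translation factors and their regulators, 10 were higher and 8 lower with *circAAGAB* (median 0.01), and 0 had an unadjusted p under 0.05. *EIF2AK1*, the heme-regulated kinase HRI, was at 8.59, 8.84 and 8.77 with *circAAGAB* and at 8.85, 8.99 and 9.00 with the empty vector, a difference of -0.22 without overlap (95% interval -0.55 to 0.12), and *EIF2B1*, a subunit of the exchange factor for eIF2, differed by -0.12. Of 20 further genes linked to ATF4, 14 were higher and 6 lower (median 0.10), and only *ATF3*, a stress-induced factor of the same protein family, reached an unadjusted p under 0.05 or met the criteria of the study. *ATF3* was at 7.25, 7.60 and 7.54 with *circAAGAB* and at 6.66, 6.45 and 6.64 with the empty vector, a difference of 0.88 (95% interval 0.51 to 1.25, unadjusted p = 0.000524, adjusted p = 1.00). The next smallest p was that of *MAP1LC3B*, an autophagosome protein, with a difference of 0.27 (standard error 0.17).

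For the tRNA ligases the list was extended to the other cytosolic ligases and their scaffold proteins, of which 10 of 15 were measured. In that list 4 were higher and 6 lower (median -0.13). *CARS1*, the cysteine ligase, was at 7.23, 7.33 and 7.12 with *circAAGAB* and at 7.48, 7.58 and 7.43 with the empty vector, a difference of -0.27 (standard error 0.14; unadjusted p = 0.0908, and with the block an unadjusted p = 0.0471). *HARS1*, the histidine ligase, was at 7.46, 7.89 and 7.95 with *circAAGAB* and at 8.03, 8.05 and 8.19 with the empty vector, a difference of -0.33 (standard error 0.17; unadjusted p = 0.0972, and with the block an unadjusted p = 0.0452). Neither overlapped between groups, and without *circAAGAB* replicate 1 the difference of *HARS1* was -0.17. Of all 18 cytosolic genes of both lists, 12 were lower and 6 higher (median -0.11), 3 were lower without overlap and 0 higher without overlap, against 4.04% and 3.87% of all probe sets. In the blocked fit 4 that were lower and 1 that was higher had an unadjusted p under 0.05, which 6.79% of all probe sets had. The higher one was *AIMP1*, a scaffold of the ligase complex, at a difference of 0.40, and of 0.54, 0.29 and 0.35 over pairs 1 to 3. It was 0.19 without empty vector replicate 1 alone, a fit that keeps *circAAGAB* replicate 1, the lowest array of its group. None passed limma after adjustment (every adjusted p = 1.00). Of 15 measured mitochondrial ligases 4 were higher and 11 lower (median -0.07). *LARS2*, the leucine ligase, had the smallest p at -0.45 (standard error 0.24), or -0.20 without *circAAGAB* replicate 1. Its differences over pairs 1 to 3 were mixed, at -1.19, 0.01 and -0.18. *MARS2*, the methionine ligase, was lower without overlap at -0.26 (standard error 0.15), and *RARS2*, the arginine ligase, was higher without overlap at 0.18. Of all probe sets 4.04% were lower and 3.87% higher without overlap.

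In the remaining lists too, none passed after adjustment. Of 23 further transporters, 10 were higher and 13 lower (median -0.01), with the smallest p for *SLC7A8* and *SLC7A7*, both 0.30 higher without overlap but below the background gauge. In the blocked fit 2 of the 23 had an unadjusted p under 0.05, which 6.79% of all probe sets had. They were *SLC38A4* at a difference of -0.50 and *SLC7A2* at -0.42, both above the gauge and lower in all 3 pairs (adjusted p = 0.724 for each with the block). Over pairs 1 to 3 *SLC38A4* differed by -1.07, -0.08 and -0.36, and *SLC7A2* by -0.82, -0.27 and -0.16. Without *circAAGAB* replicate 1 alone the differences of *SLC38A4* and *SLC7A2* were -0.13 and -0.07. That fit keeps empty vector replicate 1, the lowest empty vector array for both genes. Of 26 measured further enzymes of amino acid and one-carbon metabolism, 10 were higher and 16 lower (median -0.03). *GPT*, alanine transaminase, below the gauge, and *MTHFD1*, the cytosolic folate enzyme, each differed by -0.26. Of 17 measured chaperones and degradation factors of the endoplasmic reticulum, 5 were higher and 12 lower (median -0.12). Without overlap 1 was higher, *DNAJB9*, and 3 were lower, *HYOU1*, *HSPA5* and *CALR*. Of all probe sets 3.87% were higher and 4.04% lower without overlap. *HSPA5*, the chaperone BiP, differed by -0.17 and *CALR*, calreticulin, by -0.11. *DNAJB9*, a cochaperone of BiP, was at 7.68, 7.70 and 7.71 with *circAAGAB* and at 7.39, 7.40 and 7.24 with the empty vector, 0.36 higher without overlap (unadjusted p = 0.0297, adjusted p = 1.00), and *HYOU1*, a chaperone of the HSP70 family, was at 9.39, 9.33 and 9.50 against 9.80, 9.50 and 9.69 with the empty vector, a difference of -0.26 (standard error 0.15).

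**Figure D5:**
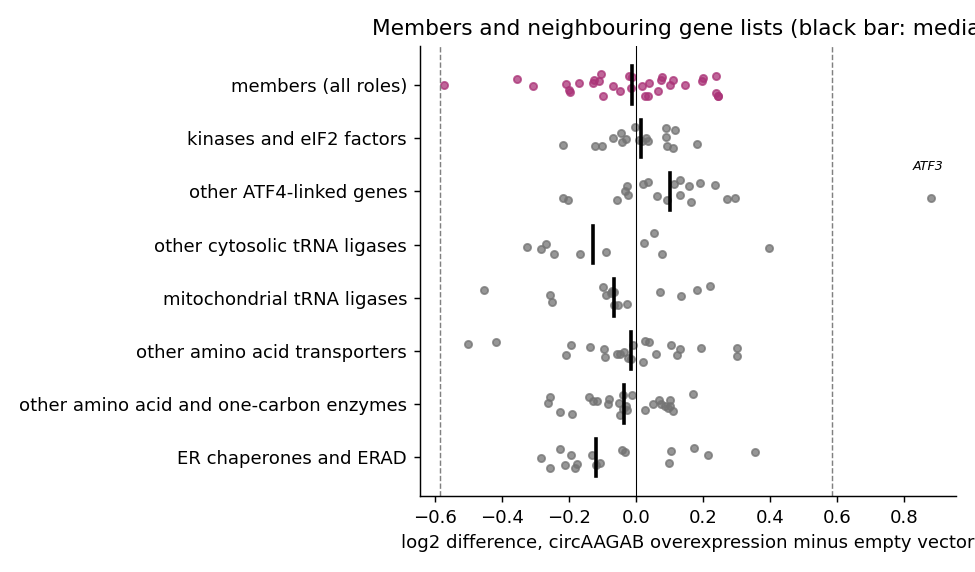
Log2 difference, *circAAGAB* overexpression minus empty vector (x axis), for the 33 genes and for 7 neighbouring lists, 1 point per gene (vertical scatter within a row has no meaning); black bars are medians and dashed lines mark a 1.5-fold change. *ATF3* at 0.88 is the only point past a dashed line, and the medians lie between -0.13 and 0.10.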

How the data were processed

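Total RNA of 6 MDA-MB-231 samples was hybridised to Clariom S arrays, 1 array per sample. The deposited values are log2 signals per probe set that the authors made by robust multichip averaging (RMA); no source used here names the software, its version or the genome build. No scanner files were used, so the background correction could not be varied, and with arrays the number of samples limits the precision. Probe sets were named by the platform annotation supplied with the values: of 21448, 17709 had 1 gene symbol and 3739 none. For a gene with several probe sets the one of highest mean over the 6 arrays was used.

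Groups came from the sample labels. Differences (*circAAGAB* minus empty vector) were fitted with limma 3.58.1 in R 4.3.3 (lmFit, eBayes) over all probe sets with Benjamini-Hochberg adjustment; p-values without further name are unadjusted limma values, two-sided. Nothing in the labels says that replicates were separate transfections, so p-values measure only the spread between these arrays. The labels number replicates 1 to 3 in both groups, and deviations from the group means correlated between equal numbers over all probe sets (r = 0.603, 0.189 and 0.549, each above the limit of 0.1), so the numbers were taken to pair the arrays, and a fit with the replicate number as a block was run as an alternative. The fitting step was tested on simulated data. Arrays were called separate where all 3 values of a group lay beyond all 3 of the other. The 11 promoter matches were searched on both strands of RefSeq windows (GRCh38.p14) with Python 3.11.15.

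The members and the neighbouring lists were chosen with earlier results of these data known. Values per array are given for *ATF4*, *DDIT3*, *ASNS*, the 3 members of each role with the smallest p and members without overlap. For the other lists the 2 genes of smallest p and any that met the criteria of the study are named. *EPRS1*, *IARS1*, *SLC38A2*, *STC2*, *AIMP1*, *RARS2*, *MTHFD1L*, *MTHFD2L*, *ALDH1L2*, *SLC38A4*, *SLC7A2*, *HSPA5* and *CALR* were added after their values were seen.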

Additional observations from a re-analysis of the deposited data

How the results depend on the processing

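In all 14 alternatives (replicate block, quantile normalization, median centring, without probe sets below the background gauge, the methods' test, a trended variance prior, the mean over probe sets of a gene, each array left out, and both arrays of number 1 left out) 0 of 33 members had an adjusted p under 0.05 and 0 met the criteria of the study, and the median log2 difference over members lay between -0.04 and 0.05. The smallest adjusted p of a member in any of them was 0.586. With probe sets below the gauge left out, 30 members remained. The count with an unadjusted p under 0.05, 0 as fitted, was 2 with the replicate block (*AARS1* and *NARS1*), 2 with the methods' test (*MTHFD2* and *SLC7A1*), 1 without both arrays of number 1 (*SHMT2*), and 0 to 2 with 1 array left out, the 2 being *SHMT2* and *SLC38A2* without *circAAGAB* replicate 1. The block, which uses the pairing by replicate number, changed no other call among the members. The sign of the difference held in each alternative run for 15 genes and turned in at least 1 for 18. *GARS1* was -0.0011 after quantile normalization and *CBS* 0.17 as the mean of both its probe sets. Without both arrays of number 1, *ASNS* was 0.20, *SLC1A4* 0.0048, *WARS1* 0.0073, *STC2* -0.21 and *GDF15* 0.030. With 1 array left out, differences ran from -0.33 to 0.23 for *ASNS*, -0.92 to 0.046 for *NARS1*, -0.37 to 0.15 for *EPRS1*, -0.38 to 0.082 for *IARS1*, -0.18 to 0.39 for *STC2*, -0.20 to 0.14 for *NUPR1*, -0.033 to 0.16 for *PSPH*, -0.21 to 0.025 for *CBS*, -0.040 to 0.11 for *YARS1*, -0.047 to 0.20 for *CHAC1*, -0.016 to 0.070 for *VLDLR*, -0.052 to 0.39 for *SLC7A11*, -0.25 to 0.24 for *SLC1A4*, -0.36 to 0.049 for *SLC1A5*, -0.098 to 0.088 for *GDF15*, -0.0058 to 0.088 for *GARS1* and -0.018 to 0.16 for *CTH*. A fit with 1 array left out keeps the other array of the same number, so its differences also take in spread between replicate numbers. Of the genes whose sign turned, *EPRS1*, *IARS1* and *NARS1* were lower in all 3 pairs, and the rest had mixed signs over the pairs. The cause of these reversals was not tested.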
